A study of Mus musculus with 18 samples.

Results

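Transcripts of 10 inflammatory cytokine genes were followed in mouse leukemia cells and normal blood progenitors: interleukin 1 alpha and beta (Il1a, Il1b), the interleukin 1 receptor antagonist (Il1rn), interleukin 6 (Il6), oncostatin M (Osm), interleukins 15, 18 and 10 (Il15, Il18, Il10), and the subunits Il12b and Il23a. The members were fixed by gene symbol, with earlier results of these data known. Counts of members beside the share of all genes are therefore a description. All 10 had exactly 1 probe set assigned to that gene alone, out of 22180 genes named in this way. RNA was measured on whole-transcript arrays, and each value is a log2 expression level after RMA. One cell type was acute myeloid leukemia (AML), driven by the MLL-AF9 fusion and sorted by GFP from marrow of leukemic mice. The other was the LSK fraction of normal marrow, which lacks lineage markers and carries Kit and Sca1, where stem and progenitor cells lie. Per the labels, both came from 4F transgenic mice, which carry Oct4, Sox2, Klf4 and c-Myc under doxycycline (Dox) control, so control cells carry the same transgenes. The treatments were none (control), Dox to induce the 4 factors, or a cocktail of VPA, CHIR, 616452 and TCP, called compound here. VPA inhibits histone deacetylases, CHIR inhibits GSK3, 616452 inhibits the TGF-beta receptor and TCP inhibits LSD1. The treated groups were taken after 24 h in vitro. Doses, the age and sex of the mice, pooling of animals, the promoter behind the Dox system and how long the controls were cultured were not stated in the labels. There were 6 groups of 3 arrays, and 17 of the 18 arrays were used, leaving 2 in LSK compound. The arrays of a group are labelled as biological repeats, but nothing ties them to separate animals, so a p-value here reflects only how far these arrays scatter, part of which may be technical.

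Interleukin 1 alpha and beta both signal through the interleukin 1 receptor, and Il1rn encodes a secreted protein that blocks it. Interleukin 1 beta and interleukin 18 are made as precursors that caspase-1 cuts within inflammasomes, and interleukin 6 and oncostatin M signal through receptors that share the gp130 chain. In myeloid cells these genes are known to be switched on by NF-kB and AP-1 after microbial or cytokine signals, and in marrow, interleukin 1 and interleukin 6 are known to push stem cells towards myeloid output.

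Among the 17 arrays, the correlation over all probe sets was 0.979 to 0.989 within a group and 0.904 to 0.979 across groups. LSK compound replicate 1 correlated with them at only 0.638 to 0.672, had a median of 3.24 against 2.65 to 2.75, and is left out of every value below unless named. The other LSK compound arrays also stood apart from LSK control and Dox in sex-linked transcripts. Xist, which silences an X chromosome in female cells, averaged 9.46 and 9.67 in LSK control and Dox and 7.34 in LSK compound. The Y-linked Eif2s3y averaged 1.77 and 1.89 in those control and Dox groups and 5.34 in LSK compound. On the AML arrays both were low, with Xist at 2.34 to 3.01 and Eif2s3y at 1.95 to 2.64. Of 4 sex-linked genes 3 were called higher in AML compound than in AML control, near the filter level. The labels give no sex. The source of the cells and the compound treatment cannot be told apart in LSK compound. Nor can the source of the cells and the cell type be told apart between AML and LSK. Of the sorting markers, Kit averaged 7.71 in LSK control and 6.22 in AML control, and Ly6a, the gene of Sca1, has no probe set assigned to it alone. In AML control the leukemia-program genes Hoxa9 (7.82, against 5.59 in LSK control) and Pbx3 (6.55 against 3.77) were high, while markers of B cells (Cd79a, Pax5, Ebf1 and Ms4a1) averaged at most 2.79 in both control groups. Myeloid markers were not low. Neutrophil and granule genes averaged 6.57 to 6.79 on the LSK control arrays and 5.23 to 5.24 on those of AML control. Monocyte and macrophage genes averaged 5.53 to 5.56 and 4.78 to 4.84.

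Promoter sequences are shown for Il1a, Il1b and Il6, the 3 genes that moved most together, and for Il12b, which passed no test with the main settings. RefSeq (GRCm38.p6) held 8 windows for 6 of the 10 members. Il10, Il23a, Il15 and Osm were not among them. Each window runs from 250 bases before the start site to 50 after it, printed 5′ to 3′ on the gene's strand. The windows are chr2:129309923-129310222 (minus strand) for Il1a, chr2:129371090-129371389 (minus strand) for Il1b, chr5:30012864-30013163 (plus strand) for Il6 and chr11:44399813-44400112 (plus strand) for Il12b. Capitals mark a match, on either strand, to any of 7 motifs.
Il1a: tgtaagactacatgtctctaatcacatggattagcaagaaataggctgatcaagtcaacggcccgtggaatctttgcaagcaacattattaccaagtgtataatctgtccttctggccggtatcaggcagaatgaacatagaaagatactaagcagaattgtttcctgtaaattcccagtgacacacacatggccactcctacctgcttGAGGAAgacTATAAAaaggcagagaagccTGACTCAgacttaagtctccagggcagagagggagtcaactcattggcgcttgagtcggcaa
Il1b: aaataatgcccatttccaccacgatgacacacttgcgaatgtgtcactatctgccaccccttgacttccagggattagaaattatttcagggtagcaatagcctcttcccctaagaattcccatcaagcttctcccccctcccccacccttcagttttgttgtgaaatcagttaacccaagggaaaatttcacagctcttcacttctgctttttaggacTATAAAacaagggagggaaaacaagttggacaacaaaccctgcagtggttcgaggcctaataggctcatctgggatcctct
Il6: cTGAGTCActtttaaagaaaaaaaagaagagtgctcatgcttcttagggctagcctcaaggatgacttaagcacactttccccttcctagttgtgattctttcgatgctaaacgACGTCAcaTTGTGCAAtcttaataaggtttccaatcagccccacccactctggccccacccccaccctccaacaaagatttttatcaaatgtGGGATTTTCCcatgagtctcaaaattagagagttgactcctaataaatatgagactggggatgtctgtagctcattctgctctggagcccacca
Il12b: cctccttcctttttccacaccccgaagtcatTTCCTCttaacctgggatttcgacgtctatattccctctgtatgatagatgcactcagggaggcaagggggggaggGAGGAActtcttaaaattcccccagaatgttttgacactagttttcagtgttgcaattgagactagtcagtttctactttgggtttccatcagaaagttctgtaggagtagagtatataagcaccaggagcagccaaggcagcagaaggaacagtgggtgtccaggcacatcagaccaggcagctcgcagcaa
The motifs searched were the NF-kB consensus, found in 4.50% of all 32817 windows of this length, TGANTCA for AP-1 (7.81%), TGACGT for the CRE core (7.505%), TTGCNNAA for C/EBP (10.8%), TATAAA (13.6%), GAGGAA for the ETS core (28.3%) and the interferon response element (GAAA, NN, GAAA; 3.43%). Il6 held an NF-kB consensus match that starts 44 bases before the start site, a C/EBP match at -128, a CRE core at -136 and an AP-1 match at -249. Il1a held a TATAAA match at -32, an ETS core at -41 and an AP-1 match at -12. Il1b held a single match, TATAAA at -31. Il12b held ETS core matches at -143 and -219. The NF-kB consensus was searched as GGGRNWYYCC (R is A or G, W is A or T, Y is C or T, N is any base). Only exact matches were counted, so a window without a match can still hold a site that differs from the string. A match is a description of the letters, and none of these factors' binding was measured here.

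**Figure D1:**
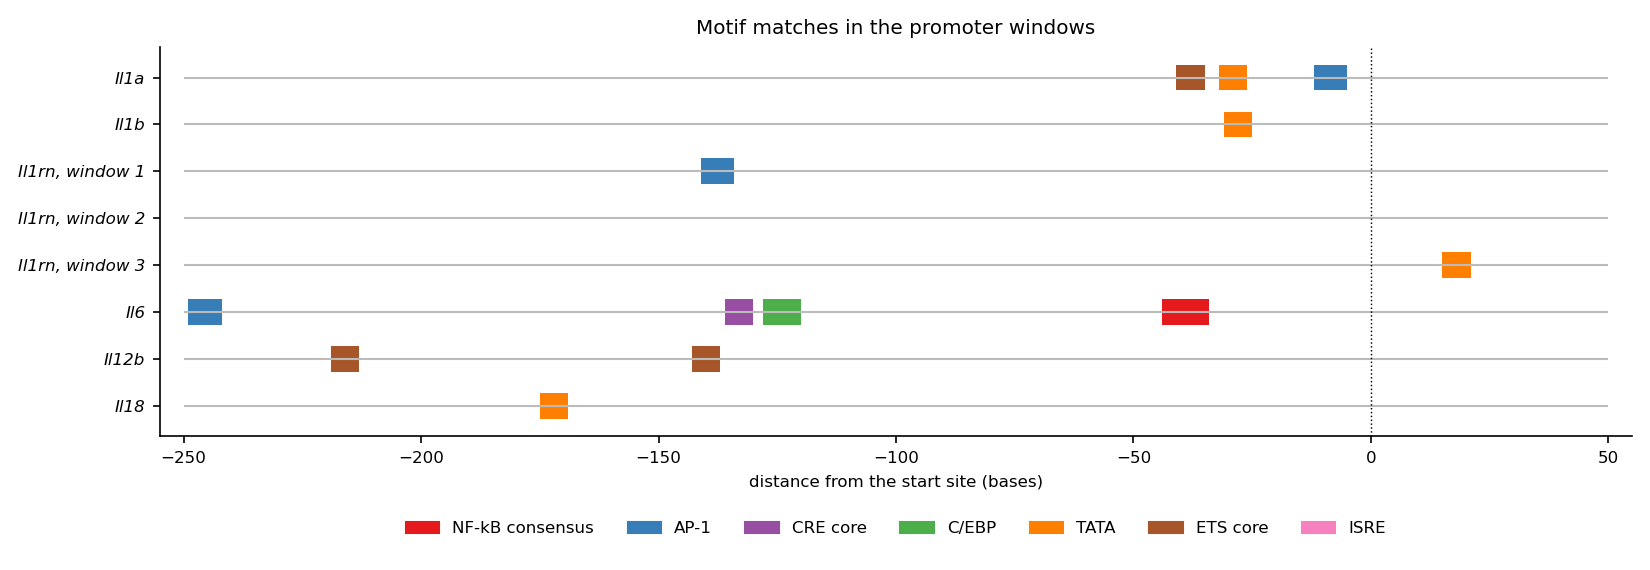
Positions of motif matches (coloured bars, width to scale) in the promoter windows of 6 cytokine genes, in bases from the start site, on grey lines that span each window. Il1a and Il1b have a TATAAA match at -32 and -31, and only Il6 among these windows has an NF-kB consensus match.

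Of the 10 members, 9 passed the filter on low values, which asks for a level above the 40th percentile of the array (2.32 to 2.41) on at least 2 of the 17 arrays. Il10 did not pass and was not tested. In LSK compound 6 of the 9 tested members were higher than in LSK control and 0 were lower. There limma called 33.2% of all 16912 genes tested (13.9% higher, 19.3% lower) at an adjusted p under 0.05. As given above, the compound treatment and the source of the cells cannot be told apart in this group. The median difference of the 9 was 2.34 on the log2 scale, against -0.05 over all genes tested. In AML cells the cocktail raised 4 and lowered 0, where 30.8% of all genes were called (12.3% higher, 18.5% lower), with a median of 0.45 against -0.03. Dox raised 1 member (Il15) and lowered 1 (Osm) in AML cells, where 47.0% of all genes were called (22.3% higher, 24.7% lower). Dox raised 2 members (Osm and Il18) and lowered 0 in LSK cells, where 18.3% of all genes were called (8.87% higher, 9.43% lower), a share close to that of the members. In each cell type both treatments are set against the same control arrays. The time the controls spent in culture was not stated. In every comparison with a control, the treatment and the 24 h in vitro therefore cannot be told apart.

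**Figure D2:**
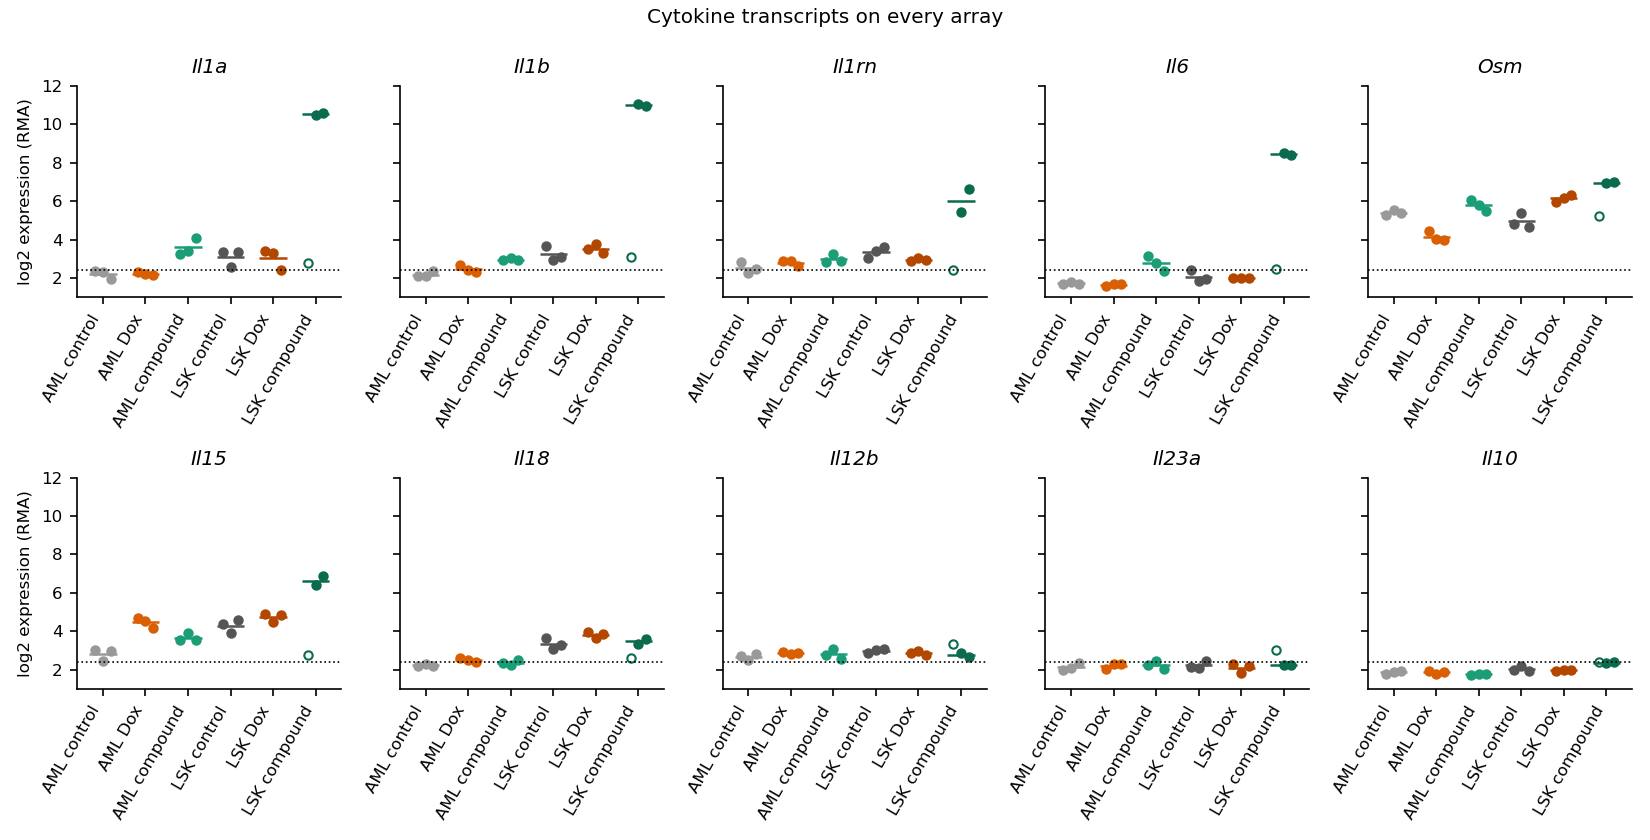
Level of each cytokine transcript (log2 RMA expression, vertical axis) on every array of the 6 groups, with short lines for group means and the dotted line at the highest filter level, 2.41. The open circle is LSK compound replicate 1, left out of the means. Il1a, Il1b and Il6 stand far above every other array on the other LSK compound arrays, at 10.47 and 10.58, 11.06 and 10.95, and 8.52 and 8.41.

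Il1b was the member that changed most. It read 3.69, 2.92 and 3.09 in LSK control and 3.50, 3.78 and 3.31 in LSK Dox. Under compound it read 11.06 and 10.95, above 99.7% of the probe sets of each array. The LSK compound arrays lay more than 7 log2 units above every other array of the 17. The difference from control was 7.77 (219-fold, SE 0.19, limma adjusted p = 1.1e-14), rank 2 of all genes tested. In AML cells Il1b stayed near the filter level: 2.09, 2.10 and 2.37 in control, 2.69, 2.43 and 2.31 under Dox, and 2.92, 3.02 and 2.93 under compound. The compound arrays did not overlap the AML control or Dox arrays, and the rise over control was 0.77 (SE 0.17, limma adjusted p = 0.00178). Raising all lower values to the filter level left an AML rise of 0.60 (adjusted p = 0.00898). The Dox difference was 0.29 in AML cells (95% interval -0.07 to 0.64) and 0.29 in LSK cells (-0.06 to 0.65), and neither passed. Without LSK control replicate 1 the latter was 0.52 and passed (adjusted p = 0.0217).

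Il1a, whose protein is active without caspase-1, followed a similar course. It read 3.37, 2.58 and 3.38 in LSK control, 3.44, 3.30 and 2.40 in LSK Dox, and 10.47 and 10.58 in LSK compound. The LSK compound difference was 7.41 (171-fold, SE 0.29, limma adjusted p = 2.44e-12), rank 4 of all genes. In AML cells Il1a read 2.36, 2.32 and 1.96 in control, 2.31, 2.20 and 2.16 under Dox, and 3.28, 3.43 and 4.09 under compound. All AML compound arrays lay above all AML control and Dox arrays, and the rise over control was 1.39 (SE 0.26, limma adjusted p = 0.000481). Dox changed Il1a by 0.01 in AML cells (95% interval -0.54 to 0.56) and -0.06 in LSK cells (-0.61 to 0.48), with no call.

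Il1rn, the antagonist, rose in LSK compound too, by a smaller amount. It read 3.04, 3.41 and 3.60 in LSK control, 2.89, 3.04 and 2.95 in LSK Dox, and 5.42 and 6.65 in LSK compound, the member with the widest gap between those last arrays. The difference from control was 2.69 (6.44-fold, SE 0.26, limma adjusted p = 3.37e-07). In AML cells Il1rn averaged 2.53 ± 0.28 (SD, n = 3) in control, 2.81 ± 0.16 under Dox and 2.98 ± 0.24 under compound. These groups overlapped in part, and neither treatment passed in AML cells (adjusted p = 0.381 for Dox and 0.173 for compound).

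Il6, a cytokine that signals through gp130, was under the filter level on 12 of the 17 arrays. It read 2.42, 1.83 and 1.97 in LSK control, 2.02, 2.01 and 2.01 in LSK Dox, and 8.52 and 8.41 in LSK compound. The difference from control was 6.39 (84.1-fold, SE 0.18, limma adjusted p = 4.99e-14), rank 9 of all genes. With low values set to the filter level it was 6.10, or 68.4-fold. In AML cells Il6 read 1.70, 1.80 and 1.69 in control, 1.57, 1.68 and 1.67 under Dox, and 3.16, 2.80 and 2.36 under compound. AML compound lay above AML control on every array, with a difference of 1.04 (SE 0.16, limma adjusted p = 8.84e-05). With low values set to the filter level that rise shrank to 0.44 (adjusted p = 0.0134). The Dox difference was -0.09 (95% interval -0.43 to 0.25) in AML cells and -0.06 (-0.40 to 0.28) in LSK cells, between groups at or under the filter level.

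Osm, also of the gp130 family, moved in opposite directions under Dox in the 2 cell types. It read 5.27, 5.55 and 5.38 in AML control and 4.45, 4.01 and 4.01 in AML Dox, a fall of 1.24 (log2 difference -1.24, SE 0.18, limma adjusted p = 1.48e-05). It read 4.83, 5.37 and 4.65 in LSK control and 5.96, 6.18 and 6.33 in LSK Dox, a rise of 1.21 (SE 0.18, limma adjusted p = 0.000127). In neither cell type did the control and Dox arrays overlap. Under compound Osm read 6.94 and 6.98 in LSK cells, above all LSK Dox arrays, with a rise over control of 2.01 (SE 0.20, limma adjusted p = 4.74e-07). In AML compound it read 6.08, 5.81 and 5.48, which overlapped the control, and the difference of 0.39 did not pass (95% interval 0.00 to 0.77, adjusted p = 0.127). It passed with array quality weights (0.54, adjusted p = 0.0208) or without AML compound replicate 3 (0.54, adjusted p = 0.0442).

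Il15, which supports natural killer and memory T cells, was the only member that Dox raised in AML cells. It read 3.04, 2.44 and 2.996 in AML control, 4.70, 4.55 and 4.16 in AML Dox, and 3.54, 3.89 and 3.55 in AML compound. These 3 groups did not overlap: Dox was highest (1.65 over control, SE 0.20, limma adjusted p = 1.75e-06) and compound lay between (0.84, SE 0.20, adjusted p = 0.00374). In LSK cells Il15 read 4.38, 3.92 and 4.56 in control, 4.88, 4.50 and 4.85 under Dox, and 6.39 and 6.87 under compound. The LSK compound rise was 2.34 (5.07-fold, SE 0.22, limma adjusted p = 2.48e-07). LSK control and Dox overlapped, and their difference of 0.46 did not pass (adjusted p = 0.14).

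Il18, the interferon-gamma inducing cytokine of the interleukin 1 family, was near the filter level in AML cells. It averaged 2.22 ± 0.04 (SD, n = 3) in AML control, 2.50 ± 0.11 in AML Dox and 2.35 ± 0.12 in AML compound, and 0 of the AML control arrays exceeded that level. In LSK cells it read 3.65, 3.05 and 3.27 in control, 3.96, 3.62 and 3.86 under Dox, and 3.34 and 3.61 under compound. The LSK control and Dox arrays overlapped. The Dox difference was 0.49 (SE 0.14, limma adjusted p = 0.0176), and it did not pass from the 6 arrays alone (adjusted p = 0.0671). It also did not pass without LSK control replicate 2 (0.35, adjusted p = 0.102), LSK control replicate 3 (0.46, adjusted p = 0.062), LSK Dox replicate 1 (0.42, adjusted p = 0.08) or LSK Dox replicate 3 (0.46, adjusted p = 0.0591). The compound difference of 0.15 in LSK cells did not pass (95% interval -0.17 to 0.47).

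The remaining members stayed at low levels in all 6 groups. Il12b, the subunit shared by interleukins 12 and 23, ranged from 2.52 to 3.10 over the 17 arrays, and Il23a, the subunit particular to interleukin 23, from 1.82 to 2.47. Neither passed in any of the 9 comparisons with the main settings. In LSK compound, where Il1b rose 219-fold, the 95% interval was -0.50 to 0.06 for Il12b and -0.34 to 0.36 for Il23a. Il10, an anti-inflammatory cytokine, averaged 2.03 ± 0.15 in LSK control and 2.37 ± 0.03 (SD, n = 2) in LSK compound, and 1 of the 17 arrays exceeded the filter level. Tested without the filter, its LSK compound difference was 0.34 (limma adjusted p = 0.0173).

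**Figure D3:**
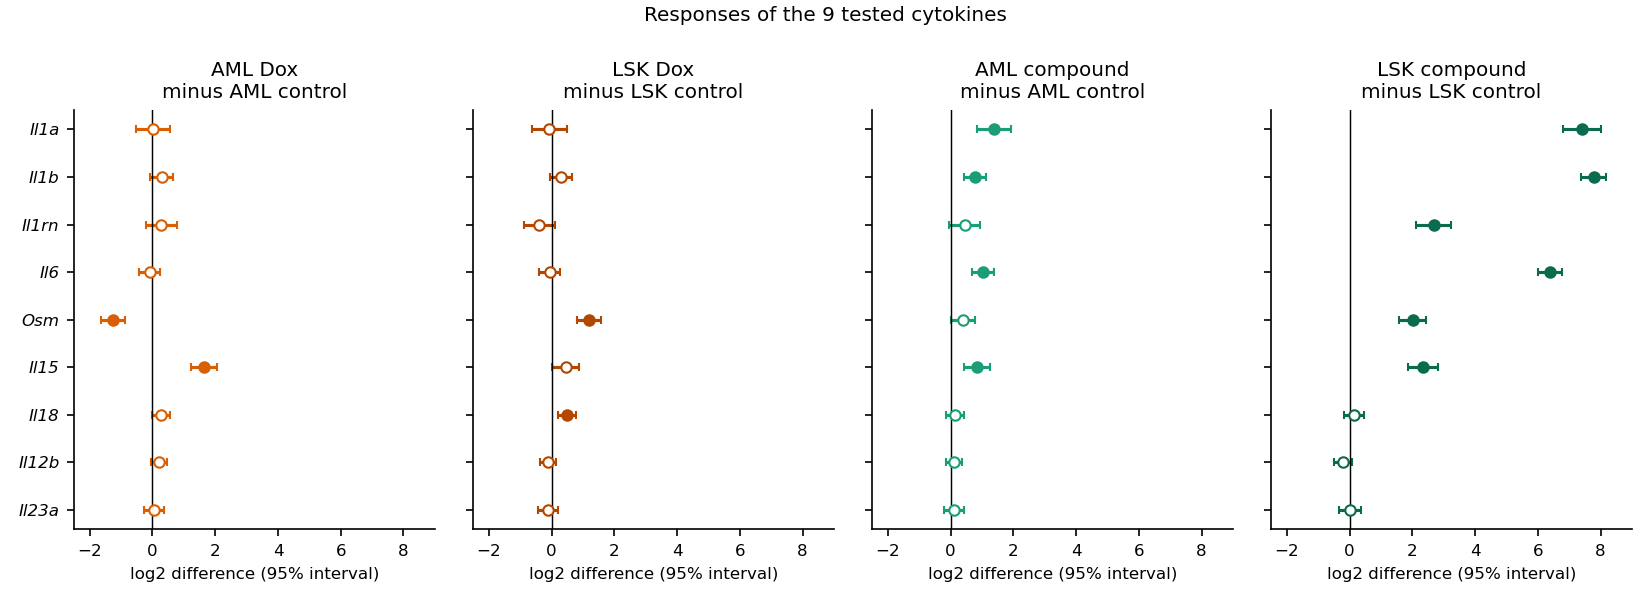
Log2 difference from the control of the same cell type (horizontal axis) with its 95% interval for the 9 tested cytokine genes under Dox and under compound. Filled points passed an adjusted p of 0.05 and open points did not. The LSK compound panel holds differences up to 7.77, and the AML compound panel none above 1.39.

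The cell types differed before treatment. In AML control 5 of the 9 members were lower than in LSK control and 0 were higher, where 28.4% of all genes were called (14.7% higher, 13.6% lower). Il15 was lower by 1.46 (log2 difference -1.46, SE 0.20, limma adjusted p = 2.29e-05) and Il18 by 1.10 (-1.10, SE 0.14, adjusted p = 6.64e-06). Il1b (-1.04), Il1a (-0.90) and Il1rn (-0.82) were also lower, while the Osm difference of 0.45 did not pass (adjusted p = 0.0772). It passed without LSK control replicate 2 (0.66, adjusted p = 0.0092), with limma-trend (adjusted p = 0.043) and with array quality weights (0.46, adjusted p = 0.0439). Il1a did not pass without AML control replicate 3 (-0.77, adjusted p = 0.0658), LSK control replicate 1 (-0.77, adjusted p = 0.0667) or LSK control replicate 3 (-0.76, adjusted p = 0.0671). Il1rn did not pass without AML control replicate 2 (-0.69, adjusted p = 0.0679) or LSK control replicate 3 (-0.69, adjusted p = 0.0672).

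The responses themselves were then compared between the cell types. The compound response was smaller in AML than in LSK cells for 6 of the 9 members and larger for 0, where 16.6% of all genes were called (8.37% higher, 8.24% lower). The LSK part of that response cannot be told apart from the source of the LSK compound cells. The difference was -7.01 for Il1b (SE 0.25, limma adjusted p = 4.86e-12), the lowest of all genes tested, -6.03 for Il1a (SE 0.39) and -5.35 for Il6 (SE 0.24). It was -2.23 for Il1rn, -1.63 for Osm and -1.51 for Il15. The Dox response differed for Osm (-2.45, SE 0.26, adjusted p = 5.71e-07) and for Il15 (1.19, SE 0.28, adjusted p = 0.00252), 1 member lower and 1 higher, where 38.8% of all genes were called (20.7% lower, the rest higher).

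Dox and compound were also set against each other within a cell type. In AML cells Il15 was higher under Dox by 0.81 (limma adjusted p = 0.00264), and 4 members were higher under compound, where 46.2% of all genes were called (22.4% higher, 23.8% lower under Dox). Those were Osm (-1.63), Il1a (-1.38), Il6 (-1.13) and Il1b (-0.48). Il6 was under the filter level on all AML Dox arrays, and with low values set to that level its difference was -0.39 (adjusted p = 0.0164). Il1b did not pass here without AML Dox replicate 2 (adjusted p = 0.0699), AML Dox replicate 3 (adjusted p = 0.106) or AML compound replicate 2 (adjusted p = 0.0737). In LSK cells the 6 members that were higher in LSK compound than in control were all lower under Dox than under compound. Of all genes, 31.4% were called there (17.3% higher, 14.1% lower under Dox). These differences ran from -7.48 for Il1a and Il1b to -0.81 for Osm.

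The rest of the pathways was read from 5 lists, whose counts stand beside the share of all genes called: 33.2% in LSK compound, 30.8% in AML compound, 47.0% in AML Dox, 18.3% in LSK Dox and 28.4% between the controls. Among genes known as targets or feedback regulators of these cytokines, 17 of 18 tested rose in LSK compound and 0 fell, with a median of 2.56. Ptgs2, the inducible prostaglandin synthase, rose by 7.50 from 3.81 to 11.31 (limma adjusted p = 8.98e-16), and the chemokine Cxcl2 by 6.15 (adjusted p = 4.11e-13). The signalling inhibitor Socs1 rose by 3.55 (adjusted p = 9.37e-14) and Nfkbia, the NF-kB inhibitor, by 2.62 (adjusted p = 6.34e-12). Only Cebpd of this list did not pass (0.13). In AML compound 9 of the 18 rose and 1 fell (Zc3h12a, an RNase that degrades Il6 mRNA, -0.54), with a median of 0.46. Cxcl2 rose there by 4.68 (adjusted p = 5.75e-12), Ptgs2 by 2.85, Icam1 by 1.08 and Socs1 by 0.80. Under Dox the list split, with 6 higher and 6 lower in AML cells and 5 higher and 4 lower in LSK cells. Ptgs2 rose by 2.98 (adjusted p = 3.72e-12) in AML Dox, where Il1a, Il1b and Il6 did not pass.

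Of 16 tested genes for receptors and binding proteins, 9 rose and 2 fell in LSK compound. Il15ra, which presents interleukin 15, rose by 2.75 (limma adjusted p = 2.51e-12) and Il18bp, the decoy that binds interleukin 18, by 2.82 (adjusted p = 6.15e-10). Il12rb1 rose by 1.91 and Il10rb by 1.23. In AML compound 6 rose and 0 fell, with Il10ra up by 2.32 (adjusted p = 1.42e-08) and Il18rap by 2.10 (adjusted p = 2.52e-08). In AML Dox, where 47.0% of all genes were called, 5 rose and 1 fell, with the gp130 gene Il6st up by 1.86 (adjusted p = 6.67e-10). In LSK Dox 4 rose and 2 fell. Il18r1 rose by 2.60 (adjusted p = 2.64e-09) and Il6ra by 1.19, while the signalling receptor Il1r1 fell by 1.08 (log2 difference -1.08, adjusted p = 8.09e-06). Il1r1 was also the receptor that differed most at baseline, at 2.74 in AML control and 7.05 in LSK control (-4.31, adjusted p = 9.52e-14).

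Partner subunits and processing genes moved less evenly. In LSK compound 8 of 11 tested rose and 1 fell. Ebi3, a subunit of interleukins 27 and 35, rose by 3.14 (limma adjusted p = 1.17e-11), the inflammatory caspase Casp4 by 1.90 and the inflammasome sensor Nlrp3 by 1.83, and Txnip fell (-1.82). In AML compound 5 rose and 1 fell, with Nlrp3 up by 2.07 (adjusted p = 2.1e-09) and its adaptor Pycard by 1.49. In AML Dox 4 rose and 5 fell, against 47.0% of all genes called, among them Ebi3 (-2.89, adjusted p = 2.48e-12), Il12a (-0.94) and the sensor Nlrc4 (1.98). In LSK Dox 6 rose and 3 fell, with Il12a lower (-1.36, adjusted p = 5.32e-07) and Nlrc4 higher (1.15).

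Among 14 genes of signal transduction, 6 rose and 1 fell in LSK compound, 4 rose and 6 fell in AML compound, 5 rose and 5 fell in AML Dox (47.0% of all genes called), and 3 rose and 1 fell in LSK Dox. The kinase Jak2 rose in all 4 comparisons, by 2.08, 1.34, 2.94 and 0.41 in that order, as did Stat4, by 1.88, 1.66, 2.04 and 0.38. Irak3, an inhibitor of interleukin 1 receptor signalling, rose under compound (1.18 in LSK and 1.10 in AML cells) and fell in AML Dox (-2.45, limma adjusted p = 9.3e-13). Of 12 transcription factors known to act at these genes, 8 rose and 0 fell in LSK compound, led by Irf1 (3.42, adjusted p = 8.11e-13), Atf3 (2.95) and Jun (2.63). In AML compound 6 rose and 1 fell, among them the AP-1 gene Fos (2.46, adjusted p = 1.54e-09), Maf (2.30) and Irf8 (1.98). In AML Dox 4 rose and 4 fell, again against 47.0% of all genes, with Jun higher (2.34) and Spi1, the myeloid factor PU.1, lower (-1.05). In LSK Dox 1 rose (Irf4, 0.67) and 1 fell (Irf8, -0.59).

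**Figure D4:**
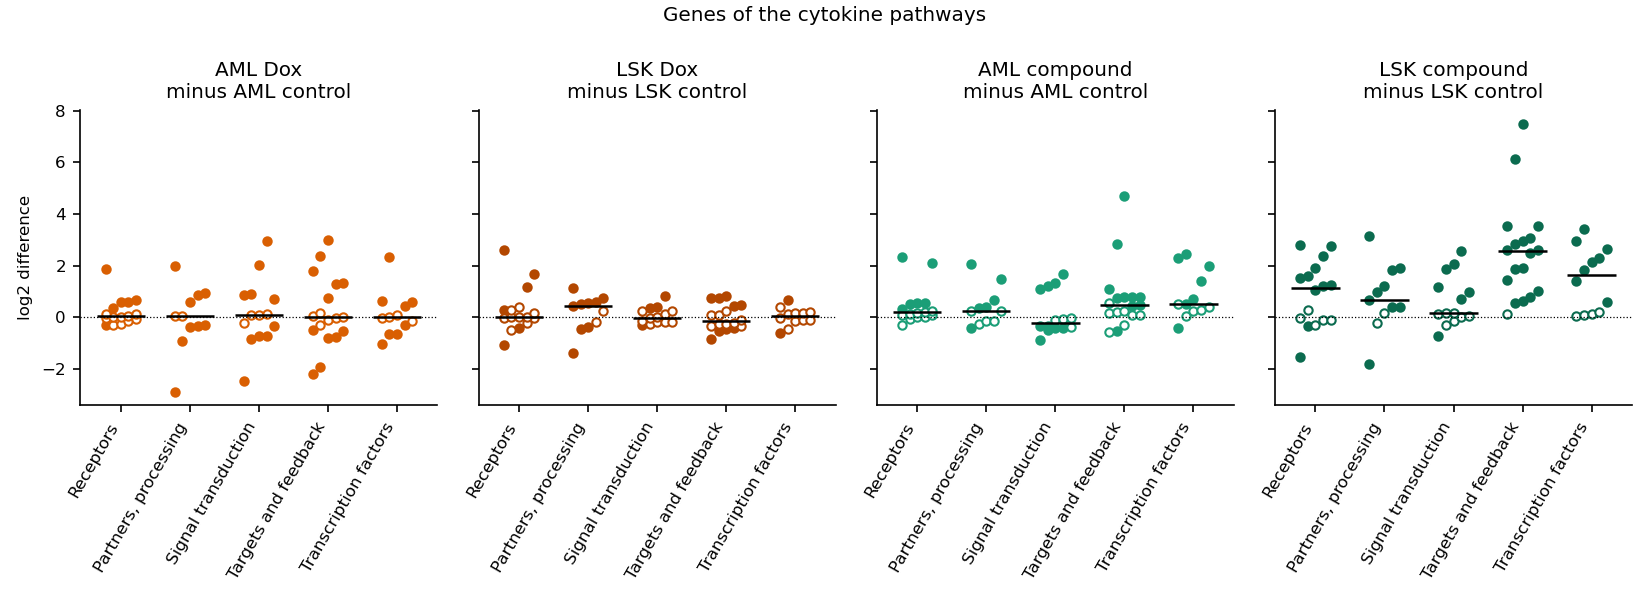
Log2 differences from control (vertical axis) of genes for receptors, partner subunits and processing, signal transduction, targets and feedback, and transcription factors, in the 4 treatment comparisons. Points are genes, filled where the adjusted p passed 0.05, and black lines are list medians. The median of the target list is 2.56 in LSK compound and 0.46 in AML compound.

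Markers of other cell types also moved, and their counts stand beside the share of all genes called. That share was 33.2% in LSK compound (13.9% higher, 19.3% lower) and 30.8% in AML compound (12.3% higher, 18.5% lower). It was 47.0% in AML Dox (22.3% higher, 24.7% lower) and 18.3% in LSK Dox (8.87% higher, 9.43% lower). The monocyte and macrophage list (9 of 10 genes with a probe set of their own) summed on the linear scale to 896 to 960 in LSK control and 1907 to 2115 in LSK compound, where 3 genes rose and 3 fell. The endotoxin co-receptor Cd14 rose there by 4.81 (limma adjusted p = 3.21e-12) and the macrophage marker Adgre1 by 4.24 (adjusted p = 2.42e-13). Lyz2 (-0.12) and Ly6c2 (-0.01) did not pass, while Csf1r (-0.46), Ccr2 (-1.92) and Mrc1 (-0.94) fell. In AML cells the list summed to 574 to 615 in control and 2079 to 2361 under compound, and 8 of 9 genes rose. The neutrophil and granule list fell in all 9 tested genes in LSK compound, from a sum of 2929 to 3335 to one of 397 to 429. Of 5 tested mast cell and basophil genes, Cpa3 (1.63) and Hdc (2.76) rose in LSK compound and Mcpt8 (-3.18) and Ms4a2 (-0.82) fell, with a list sum of 192 to 199 in control and 408 on both compound arrays. In AML compound 4 of 9 neutrophil and granule genes fell and 0 rose, with a sum of 5072 to 5128 in control and 2095 to 2412 under compound. Of 7 tested stem and progenitor genes, 4 rose and 0 fell in AML compound, and 3 rose and 2 fell in LSK compound. Dox moved these lists too. In AML Dox the neutrophil and granule sum was 1345 to 1378, with 4 genes lower and 1 higher, where 47.0% of all genes were called. Of 7 tested stem and progenitor genes 3 fell and 3 rose there, with a list median of 0.07. Cd34 (8.67 to 3.44, limma adjusted p = 4.5e-15) and Kit (6.22 to 3.44, adjusted p = 3.97e-11) fell. Mecom (5.30 to 5.91), Procr (3.01 to 3.46) and Hlf (2.81 to 3.23) averaged higher. These stood beside the changes of Osm and Il15. In LSK Dox 8 of 9 neutrophil and granule genes fell (sum 1209 to 1229) and 3 of 5 mast cell and basophil genes fell (sum 45.2 to 51.9), beside the changes of Osm and Il18. In bulk samples a change in cells of a type and a change in RNA per cell cannot be told apart, and the part of these cell types in the cytokine levels was not tested. Neither erythroid marker tested passed in LSK compound. Of the lymphoid, dendritic and stromal lists, Ccr7 (2.73), Ebf1 (1.03) and Kdr (0.83) rose there and Nkg7 fell (-1.84), while Cd3e (-0.17) and Itgax (-0.28) did not pass.

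**Figure D5:**
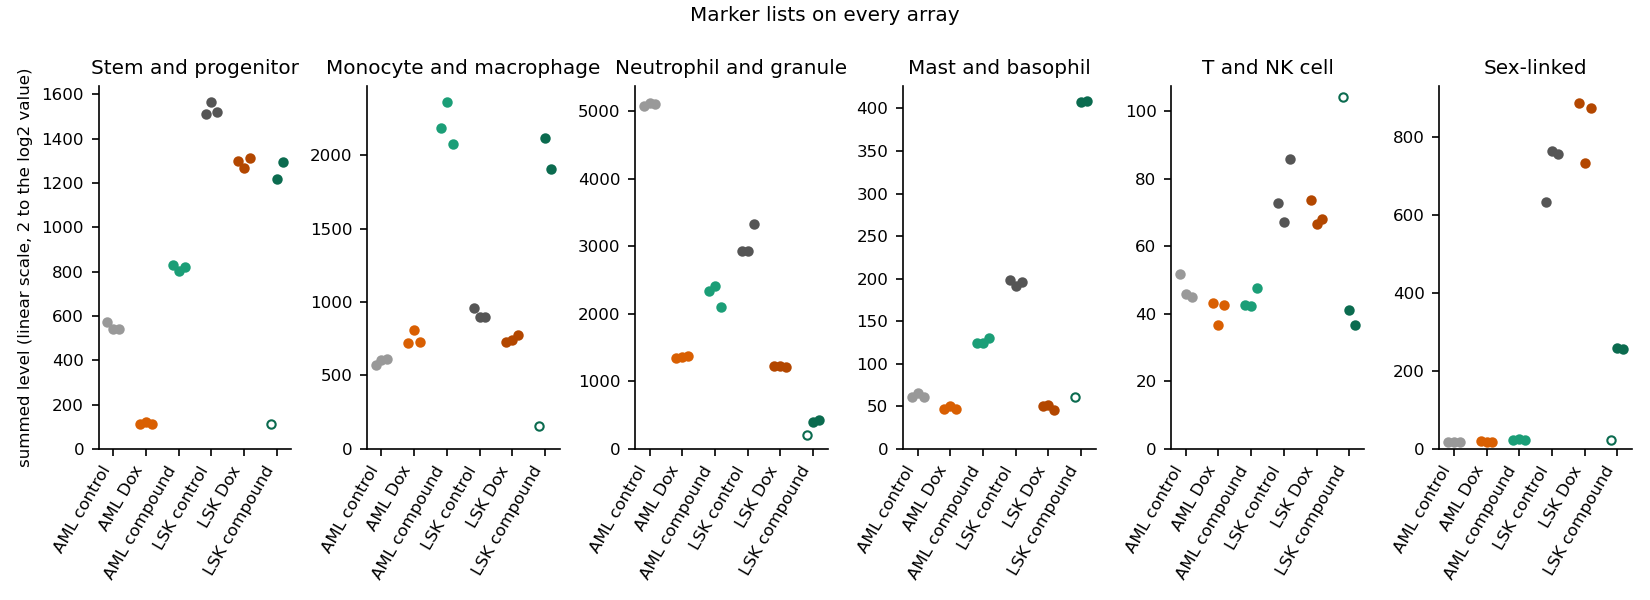
Summed level of 6 marker lists on the linear scale (vertical axis, starting at 0, own scale per panel) on every array of the 6 groups, with LSK compound replicate 1 as an open circle. The monocyte and macrophage sum is 1907 to 2115 on the other LSK compound arrays and 2079 to 2361 in AML compound. The sex-linked sum, mostly Xist in LSK control and Dox, is lower in LSK compound. Of the 4 sex-linked genes, 3 were called higher and 1 lower in LSK compound than in LSK control.

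Genes whose pattern was most like that of a member were ranked by Pearson correlation over the 17 arrays, as a description, since the arrays share groups. Il1b was closest to the chemokine gene Cxcl16 (r = 0.993), Il1f9 of the interleukin 1 family (0.991) and Serpinb6b (0.990). Il6 was closest to Serpinb2 (0.992), the chemokine gene Cxcl10 (0.992) and Ifi207 (0.991), and Il1a to Ifi207 (0.986), Cxcl16 (0.984) and Atf3 (0.982). Il1rn was closest to Msrb3 (0.970), Ifi213 (0.969) and Slamf1 (0.966). Il15 was closest to Snx10 (0.971), Gsap (0.960) and Ube2l6 (0.953), Osm to Ier3 (0.946), Ncf1 (0.944) and Cytip (0.936), and Il18 to Zfp521, Maoa and Arhgef5 (0.968, 0.968 and 0.966). A gap between groups can give such an r by itself. Il1f9 averaged 7.45 in LSK compound and 1.84 to 2.70 in the other groups, and Slamf1 3.97 against 2.05 to 2.14. Maoa averaged 4.45 in LSK control and 2.50 in AML control. In LSK compound the treatment and the source of the cells cannot be told apart, and shared regulation was not tested.

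LSK compound replicate 1 decides how many of these calls stand. On that array Il1a read 2.80, Il1b 3.10, Il1rn 2.41 and Il6 2.47, but its values as a whole are shifted up (median 3.24). They are also less spread (SD 1.45, against 2.01 to 2.08 on the 17 arrays). The stem and progenitor sum was 114 there, against 1218 and 1295 on the other LSK compound arrays. The monocyte and macrophage sum was 158, against 2115 and 1907. The T and NK cell, B cell, erythroid, and stromal and endothelial sums read higher there. Low values on this array were thus not particular to the cytokines. By percentile within the array, Il1a (38.0), Il1b (46.3) and Il1rn (26.3) lay below every LSK control array, whose lowest were 47.4, 55.2 and 57.7. Il6 (28.1) lay within the LSK control range of 16.7 to 42.6. With all 18 arrays the LSK compound differences were 5.14 for Il1b (SE 1.38, limma adjusted p = 0.0191), 4.84 for Il1a (adjusted p = 0.0245), 4.39 for Il6 (adjusted p = 0.0104) and 1.43 for Osm (adjusted p = 0.0144). Il1rn (1.48, adjusted p = 0.143) and Il15 (1.04, adjusted p = 0.296) no longer passed. With the array included, 27 of the 38 calls reported for single members were lost. In the 11 of these that involve LSK compound the difference itself was also smaller. The other 16 do not involve LSK compound, their differences are the same with a larger SE, and 15 of the 16 passed when only the arrays of the groups compared were fitted.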

How the data were processed

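Total RNA was labelled with biotin and hybridised to 1-colour arrays with a whole-transcript kit, per the labels' protocols. The authors deposited log2 values of 41345 probe sets, and the submitters' processing notes name RMA. Its version, the genome build and any centring were not stated. No further normalization was applied. Scanner files were not used here.

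Of the probe sets, 23521 were assigned to 1 gene, 1814 to several and 16010 to none in the platform table. Each of 22180 genes was represented by its probe set of highest mean on the 17 arrays. The filter (above the 40th percentile of the array on at least 2 arrays) left 16912. limma 3.58.1 in R 4.3.3 was fitted with 1 mean per group (11 residual and 5.34 prior degrees of freedom) and 9 contrasts, with p-values adjusted by Benjamini and Hochberg's method across all tested genes and a threshold of 0.05. The fit was run on simulated data with independent noise and the same spread per gene in all groups. The response differences were not part of that run, and it does not bear on groups of unequal spread. The number of arrays limits the precision.

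The members, gene lists and rule for named genes were chosen with earlier results of these data known. From each list and comparison up to 4 genes past the threshold with the smallest p are named. Any other named gene was picked with its values in view. Of the list genes, only those with a probe set of their own were counted. Replicate numbers were checked for pairing and the effect of a replicate block, each array left out, other fits, scalings and filters is given in the closing section. The markers tested were stem and progenitor, MLL-AF9 program, monocyte and macrophage, neutrophil and granule, dendritic, mast and basophil, erythroid, T and NK cell, B cell, endothelial and stromal, and sex-linked genes.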

Additional observations from a re-analysis of the deposited data

Results flagged for a closer look

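The compound response differed between AML and LSK cells, by the test of the difference itself (limma, adjusted p under 0.05), for Il1b (-7.01), Il1a (-6.03), Il6 (-5.35), Il1rn (-2.23), Osm (-1.63) and Il15 (-1.51), each the log2 response in AML minus that in LSK cells. With all 18 arrays these ran from -4.37 (Il1b, adjusted p = 0.343) to -0.21 (Il15, adjusted p = 0.913) and none of the 6 passed. In LSK compound the treatment and the source of the cells cannot be told apart. The Dox response differed for Osm (-2.45) and Il15 (1.19). With all 18 arrays Osm passed and Il15 did not (adjusted p = 0.629).

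On LSK compound replicate 1, the array left out of the comparisons, Il12b (3.35), Il23a (2.998), Il6 (2.47) and Il10 (2.42) read above every LSK control array. The 40th percentile of that array was 2.88, against 2.32 to 2.41 on the others, and Il6 and Il10 lay under it. By percentile within the array, Il12b (53.0) lay below every LSK control array (53.8 or more). Il23a (43.5) lay close to the highest of them (43.1).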

How the results depend on the processing

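With all 18 arrays the number of members called by limma moved to 1 for AML Dox, 0 for AML compound (0 at unadjusted p under 0.05), 0 for LSK Dox (2 unadjusted), 1 for AML against LSK control, 1 for the Dox response, 0 for the compound response (2 unadjusted), 1 for AML Dox against compound and 3 for LSK Dox against compound. For LSK compound it was 4 in place of 6. From the groups compared alone LSK Dox gave 1. Leaving out 1 array at a time gave 1 to 3 members for LSK Dox (1 without LSK control replicate 2 or 3, or LSK Dox replicate 1 or 3), 3 to 6 for AML against LSK control (3 without LSK control replicate 3), 4 to 5 for AML compound and for AML Dox against compound, 2 to 2 for AML Dox and for the Dox response, and 6 to 6 for the LSK compound, compound response and LSK Dox against compound comparisons. Where an LSK compound array was left out, the remaining one is assumed to vary like the other groups. Median centring, quantile normalization, no filter, the stricter filter, low values at the filter level and limma-trend kept all 54 counts within 1.5 times, and so did array quality weights (7 for AML against LSK control). Of 638 single values, 598 kept direction and call, 40 lost the call (27 of them with all 18 arrays) and 0 reversed. Some differences passed only elsewhere: Il18 in AML Dox (adjusted p = 0.033) and the Il1rn Dox response (0.67, adjusted p = 0.0261) from the groups compared alone, and Il12b in AML against LSK control with array quality weights (-0.29, adjusted p = 0.0461). A second probe set could not be tried, since each member has 1.

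Same-numbered arrays deviated together at r of -0.06 to 0.10, over 0.1 in 1 of 19 pairs, and in no comparison with 3 pairs did every array correlate best with its own number. With the replicate number as a block the counts were 2, 4, 2, 6, 5, 2, 6, 5 and 6 for AML Dox, AML compound, LSK Dox, LSK compound, AML against LSK control, the Dox and compound responses, and Dox against compound in AML and LSK cells, and no call of a single member changed.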

Other observations

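Other cytokines of the same families were looked at after the values were seen. Of 4 further genes of the interleukin 1 family that could be tested, 2 rose in LSK compound. Il1f9, an epithelial and myeloid alarm cytokine, rose from 2.57 ± 0.03 (SD, n = 3) to 7.45 ± 0.04 (n = 2), a difference of 4.88 (SE 0.12, limma adjusted p = 1.38e-14), and Il1f6 rose by 1.15 (adjusted p = 5.89e-06). Neither passed in AML compound. Il33, an alarm cytokine of the same family, rose in AML Dox from 2.27 ± 0.13 to 5.61 ± 0.07 (n = 3), a difference of 3.33 (SE 0.09, limma adjusted p = 2e-14), where Il1a and Il1b did not pass.

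Of 5 further genes of the interleukin 6 family, only Lif changed under a treatment. Lif, which signals through gp130, rose in LSK compound from 3.19 ± 0.38 (SD, n = 3) to 6.06 ± 0.08 (n = 2), a difference of 2.87 (SE 0.18, limma adjusted p = 9e-10).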
